A study of Rattus norvegicus with 32 samples.

Results

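The dentate gyrus (DG) and Ammon's horn (CA) of rats exposed to methamphetamine (METH) were compared by RNA-seq, to see which genes set these 2 hippocampal subfields apart in METH-exposed tissue. The 8 libraries, 4 labelled DG METH and 4 labelled CA METH, were taken by region and treatment from the 32 RNA-seq libraries of the series. All came from adult male Sprague-Dawley rats given 4 intraperitoneal injections of METH, a psychostimulant that releases dopamine and other monoamines, at 10 mg/kg and 2 h apart, with tissue taken 24 h after the last one. The 4 DG Sal and 4 CA Sal libraries, from rats of the same strain, sex and stage given saline on the same schedule, were set beside them only to show where the METH comparison differs. Both subfields were scooped out by hand after the neocortex had been lifted off, and 1 hemisphere of a brain went to RNA-seq. Bulk tissue was measured, so that fewer cells of a type and less RNA per cell cannot be told apart.

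The DG and CA are successive stations of the hippocampal circuit. Granule cells of the DG, which express the homeobox factor Prox1 from their birth and are renewed from a neurogenic niche in the adult, send mossy fibers to the CA3 pyramidal cells, which in turn project to CA1, while CA2 is a small field between them. The pyramidal fields are told apart by genes such as Wfs1 (CA1), Rgs14, Pcp4 and Amigo2 (CA2), and Bok and Grik4 (CA3). Interneurons that release GABA together with peptides such as somatostatin or VIP lie in all of these fields.

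The total count lay between 13638981 and 20222158 in DG METH and between 12847406 and 14965514 in CA METH, and expression is given as CPM (counts scaled by the library size and its upper quartile), where 1 read was worth 0.0462 to 0.0824 CPM. The file headers named different sequencing runs and library numbers. DG METH 1 and 2 were sequenced in 1 run, CA METH 1 and 2 in another, and replicates 3 and 4 of both regions shared the last one, so that region and run can be told apart only in replicates 3 and 4. DG METH 1 and 2 carried the library numbers 14 and 15, which in the CA and NAc (nucleus accumbens) belonged to saline samples, whereas DG Sal 1 and 2 carried 20 and 21, which belonged to METH samples there. Among 4 genes whose level, in CPM of the total count, followed the library number in the NAc and CA, AABR07044362.6 was at 0 reads in the library labelled DG METH 1 and in CA Sal 1 and NAc Sal 1 (all number 14), but at 1.79 to 4.08 CPM in the CA METH libraries and 2.02 to 2.76 CPM in the NAc METH libraries. It varied within saline too, with 5.49 CPM in CA Sal 2, 4.97 CPM in CA Sal 3 and 3.24 CPM in NAc Sal 2. At 3.67 CPM, DG METH 2 lay in the range of both METH and saline libraries. Cd99l2 was at 0.49 CPM in DG METH 1 and at 1.78 CPM in DG Sal 1, against 1.95 CPM in CA METH 1 and 0.26 CPM in CA Sal 1. Usp9y departed from the number in DG METH 1, with 0.55 CPM there against 0.05 CPM in CA Sal 1 and 0 reads in NAc Sal 1. In DG METH 2 it was at 0.81 CPM, between CA Sal 2 (0.59 CPM) and NAc Sal 2 (1.03 CPM), and at 0 reads in all 6 libraries numbered 20 or 21, DG Sal 1 and 2 among them. The numbers are thus at odds with the labels of DG METH 1 and 2 and of DG Sal 1 and 2. Some of the results are given with and without DG METH 1 and 2, and the others only with them.

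DG METH 3 stood apart from the other 7 libraries. On the first principal component, which held 33% of the variance, it lay at -58.6 and the others between 1.3 and 17.6. Ttr, the main secreted protein of the choroid plexus, was at 5290 CPM in DG METH 3 and at most 301 CPM elsewhere. DG METH 1 lay nearest to CA METH 4 and CA METH 1 nearest to DG METH 2, while the other 6 lay nearest to a library of their own region, so that the region labels did not divide the 8 libraries cleanly. For several marker results that lean on DG METH 3, the value without that library is given beside them.

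Of 17 granule cell genes tested, 15 had a log2 fold change above 0, with a higher mean in DG METH, but in DG METH 3 several lay at CA levels. Prox1 (chr13:108382399-108443294 in rn6) was at 307, 265, 57.9 and 201 CPM in DG METH 1 to 4 and at 55.5, 51.6, 157 and 87.5 CPM in CA METH 1 to 4. DG METH 3 fell among the CA libraries and the groups overlapped, with a log2 fold change of 1.24 ± 0.51 (SE) and an adjusted p of 0.293 in edgeR's quasi-likelihood test. C1ql2, a secreted C1q-like protein of mossy fiber synapses, was at 99.1, 76.0, 3.79 and 59.8 CPM in DG METH and at 10.1, 31.9, 38.3 and 32.9 CPM in CA METH. Its lowest value among the 8 libraries was thus that of DG METH 3, and its log2 fold change was 1.07 ± 0.75 (SE; adjusted p = 0.515). Without DG METH 1 and 2 the log2 fold changes of Prox1 and C1ql2 were 0.55 and 0.16, and within the shared run, where DG METH 3 is 1 of 2 DG libraries, they were 0.09 and -0.17. Without DG METH 3 they were larger, at 1.55 (adjusted p = 0.0869) and 1.46 (adjusted p = 0.103).

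Of 20 granule cell genes, 17 were tested. Over all 14842 genes tested, 0 (0.0%) passed an FDR of 0.01 with a 2-fold difference, while 15.4% had an unadjusted p under 0.05, with 7.57% higher and 7.84% lower in DG METH. Of the 17 granule cell genes, 0 passed the former, 8 were higher and 0 lower at the latter, and 0 had groups that did not overlap. Over all genes 8.95% had such groups, 4.04% with DG METH above CA METH and 4.91% below. Their median log2 fold change was 0.67, beside 0.023 over all genes. Desmosomal Dsp (log2 fold change 2.03), the polo-like kinase Plk5 (2.03), the axon guidance molecule Sema5a (0.95) and the cation channel Trpc6 (1.06) were among the 8. Dsp was at 2.11, 5.97, 10.2 and 1.30 CPM in DG METH and at 0.907, 1.55, 1.73 and 0.629 CPM in CA METH, and here DG METH 3 was the highest, so that its log2 fold change was 1.36 without that library. Calb1, the calcium buffer calbindin, went the other way, at 94.7, 49.7, 23.6 and 57.8 CPM in DG METH and 48.3, 129, 94.1 and 119 CPM in CA METH (log2 fold change -0.79, adjusted p = 0.393). Without DG METH 3, 13 of the 17 were higher at an unadjusted p under 0.05 (8.2% of all genes were higher then and 8.41% lower) and the median was 0.79. Without DG METH 1 and 2, 2 were higher and 1 lower (6.88% and 7.47% of all genes), and the median was 0.37. In replicates 3 and 4 alone 1 was higher and 1 lower (4.16% and 6.0% of all genes), and the median was 0.09.

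Of the CA3 genes tested, 7 of 9 had a log2 fold change above 0, although CA3 belongs to the CA. Bok, a BCL-2 family member that marks CA3, was at 37.8, 42.1, 46.4 and 64.3 CPM in DG METH and at 13, 19.7, 24.6 and 22.5 CPM in CA METH. Each DG METH library was above each CA METH library (log2 fold change 1.26 ± 0.22 (SE), adjusted p = 0.0634). Grik4, the kainate receptor subunit GluK4 of CA3, was at 107, 51.3, 107 and 86.8 CPM against 34.4, 53.8, 58.2 and 56.1 CPM, with only DG METH 2 inside the CA METH range (0.80 ± 0.25 (SE), adjusted p = 0.180). Of 9 CA3 genes tested, 4 were higher and 0 lower by an unadjusted p under 0.05 (7.57% and 7.84% of all genes). The groups of Bok, the Wnt antagonist homolog Dkk3 (0.73) and the zinc finger factor St18 (0.87) did not overlap, and 4.04% of all genes lay higher in this way. The median over the 9 was 0.57, and it was 0.74 without DG METH 1 and 2, 0.42 without DG METH 3 and 0.64 in replicates 3 and 4.

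CA1 genes lay on both sides, whereas 7 of 8 CA2 genes tested had a log2 fold change above 0. Wfs1, an endoplasmic reticulum protein of dorsal CA1, was at 53.9, 883, 130 and 692 CPM in DG METH and at 290, 258, 323 and 252 CPM in CA METH, so that the CA libraries lay close together within the wide DG range (log2 fold change 0.65, adjusted p = 0.685). Neurod6, a bHLH factor of pyramidal neurons, was at 116, 154, 161 and 256 CPM in DG METH and at 134, 106, 77.1 and 86.0 CPM in CA METH (0.78, adjusted p = 0.201). Among 8 CA1 genes tested 1 was higher and 2 lower by an unadjusted p under 0.05 (7.57% and 7.84% of all genes). The CA1 median of -0.23 ran from -0.54 to 0.09 when 1 library was left out, and was 0.01 without DG METH 3. The lowest p was that of Nov, a matricellular protein, at 59.9 to 157 CPM in DG METH and 212 to 381 CPM in CA METH (-1.65, adjusted p = 0.0743). Of the CA2 genes 2 were higher and 0 lower by an unadjusted p under 0.05 (7.57% and 7.84% of all genes), with a median of 0.35. Without DG METH 1 and 2, 4 were higher (6.88% of all genes) and the median was 0.75. In replicates 3 and 4, 3 were higher (4.16% of all genes) and the median was 0.90. Rgs14, a regulator of G protein signaling, lay at 65.9 to 172 CPM in DG METH and 72.4 to 96.5 CPM in CA METH, the calmodulin regulator Pcp4 at 63.7 to 81.6 and 44.3 to 82.7 CPM, and the adhesion protein Amigo2 at 8.88 to 33.2 and 7.91 to 20.7 CPM, with overlap in each. Ccdc3, a secreted protein, was the only one of the 8 CA2 genes tested whose groups did not overlap, at 0.995 to 3.41 CPM against 0.350 to 0.619 CPM (2.23, adjusted p = 0.0661). Of all genes, 4.04% lay higher without overlap. Fibcd1 was at 0 reads in 7 of the 8 libraries and Iyd was below 0.3 CPM in all, so neither was tested.

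**Figure D1:**
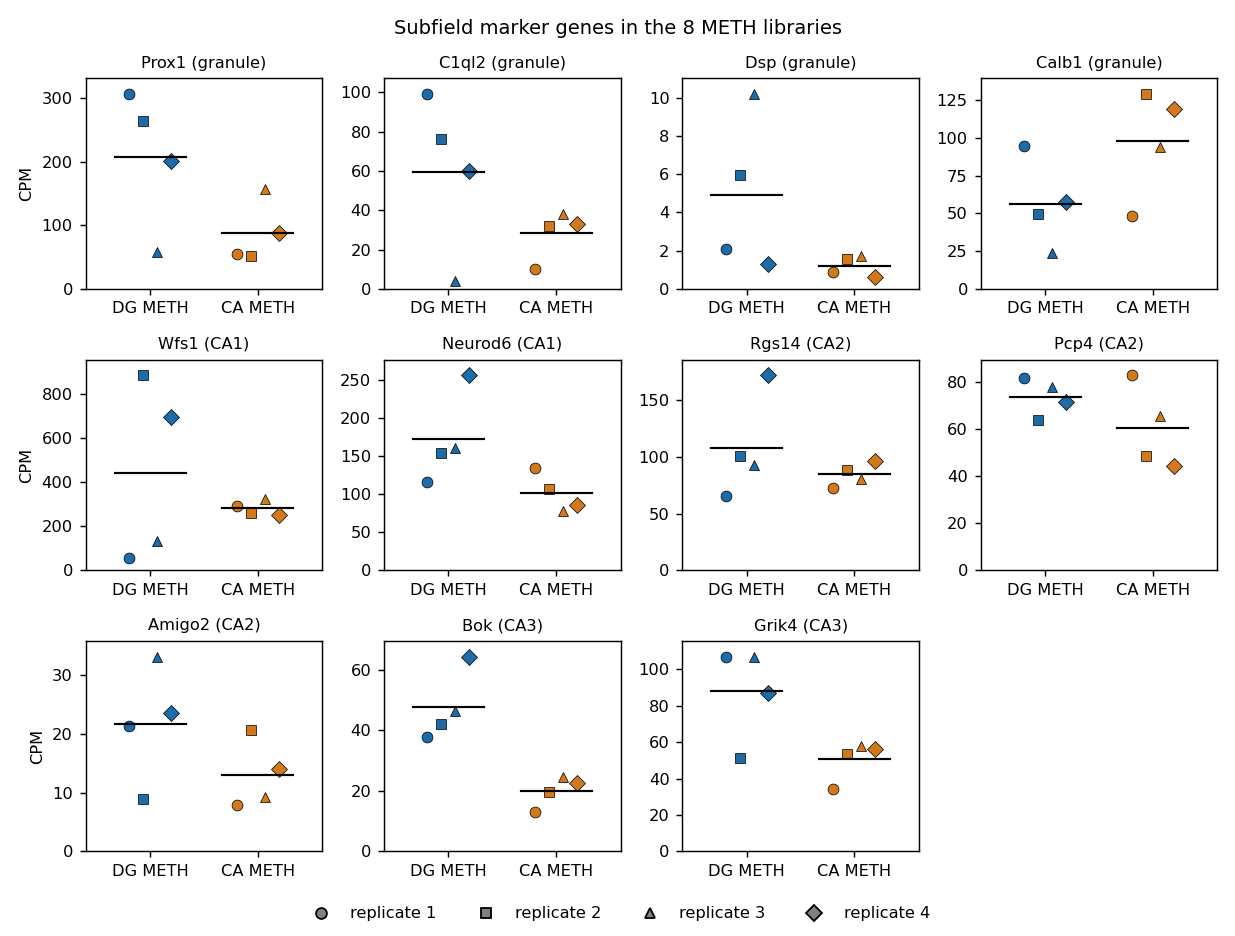
CPM of 11 subfield marker genes (vertical axis, from 0) in the 4 DG METH (blue) and 4 CA METH (orange) libraries, with a symbol for each replicate number and a line at the group mean. Bok separates the groups (37.8 to 64.3 against 13 to 24.6 CPM), whereas DG METH 3 (triangle) lies low in Prox1 (57.9 CPM) and C1ql2 (3.79 CPM) and Wfs1 spreads from 53.9 to 883 CPM within DG METH.

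Mossy cells, the glutamatergic neurons of the hilus, and the neurogenic niche belong to the DG. Of 7 mossy cell genes tested, 2 were lower and 0 higher at an unadjusted p under 0.05, beside 7.84% and 7.57% of all genes. The median of the mossy cell genes was -0.40 on the log2 scale, but 0.11 without CA METH 3. Calretinin (Calb2) was at 3.47 to 10.8 CPM in DG METH and at 7.25 to 35.5 CPM in CA METH. Of 12 niche genes tested, 1 was higher (the DNA topoisomerase Top2a of dividing cells, 0.805 to 3.27 against 0.907 to 1.26 CPM) and 1 lower, near the shares of all genes. The lower one was Sox11, a factor of newborn neurons, at 11.8, 9.45, 11.4 and 9.85 CPM in DG METH and at 19.3, 26.1, 19.6 and 21.3 CPM in CA METH. Its groups were far apart relative to their spread (-1.01 ± 0.13 (SE), adjusted p = 0.0505).

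Markers of tissue around the hippocampus varied between the libraries, and only in some lists along with the region label. The summed level of 9 choroid plexus genes was 6520 CPM in DG METH 3, against 9.74 to 31.0 CPM in the other DG METH libraries and 3.38 to 376 CPM in CA METH. Otx2, a defining factor of the choroid plexus, was at or below 3 reads in all 8 libraries. The 9 thalamic genes summed to 72.0 to 214 CPM in DG METH and 54.1 to 83.6 CPM in CA METH, and 4 of the 8 tested were higher in DG METH at an unadjusted p under 0.05, all with groups that did not overlap. Over all genes, 7.57% were higher and 7.84% lower at that p. The groups of 4.04% and 4.91% of all genes did not overlap, with DG METH above and below CA METH. Shox2, a homeobox factor of thalamic neurons, was at 0.967, 1.49, 8.22 and 1.11 CPM in DG METH and at 0.0824, 0.0774, 0.128 and 0 CPM in CA METH (adjusted p = 0.0782), and Tcf7l2, a Wnt effector of the thalamus, at 14.1 to 39.6 against 9.02 to 12.4 CPM. The log2 fold change of Tcf7l2 was 1.06, and 0.64 without DG METH 3. Without DG METH 3, 4 thalamic genes were higher by that measure, and the medians of the thalamic, choroid plexus and oligodendrocyte lists went from 1.14, 3.88 and 0.82 to 0.62, -2.21 and 0.27. Oligodendrocyte genes summed to 3160 to 15600 CPM in DG METH and 2540 to 8870 CPM in CA METH, all 11 had a log2 fold change above 0, and 0 had an unadjusted p under 0.05 over the 8 libraries, but 10 did in replicates 3 and 4. Of all genes, 4.16% were higher and 6.0% lower in replicates 3 and 4. Cortical glutamatergic genes were on the other side, at 94.2 to 164 CPM in DG METH and 166 to 416 CPM in CA METH, with 3 of 6 lower at an unadjusted p under 0.05. Striatal medium spiny genes reached 487 CPM in DG METH 3 and 754 CPM in CA METH 3 and lay between 184 and 256 CPM in the other 6.

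**Figure D2:**
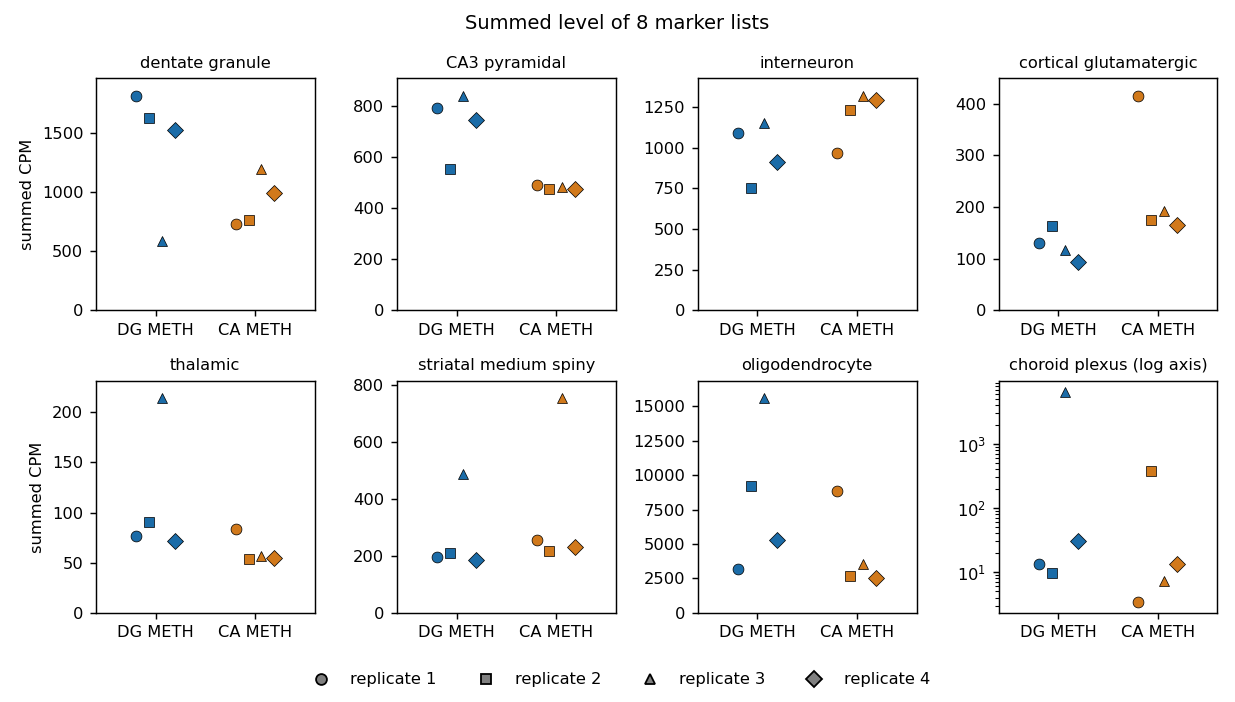
Summed CPM of 8 marker lists in each DG METH (blue) and CA METH (orange) library, on axes from 0 except for the choroid plexus, whose axis is logarithmic, with a symbol for each replicate number. The CA3 list separates the groups (553 to 839 against 472 to 489 CPM), and DG METH 3 (triangle) is the highest of all in the choroid plexus (6520 CPM), oligodendrocyte (15600 CPM) and thalamic (214 CPM) lists and the lowest in the granule list (589 CPM).

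The groups overlapped in astrocytes, microglia and endothelium. Astrocyte genes summed to 4730 to 5050 CPM in DG METH and 4510 to 5570 CPM in CA METH, with a median difference of 0.00 on the log2 scale and 0 of 10 genes at an unadjusted p under 0.05. Microglial genes (286 to 316 against 282 to 374 CPM) and endothelial genes (262 to 364 against 267 to 344 CPM) overlapped in their sums. The interneuron list summed to 751 to 1150 CPM in DG METH and 966 to 1320 CPM in CA METH, and 3 of 10 members were lower at an unadjusted p under 0.05 with groups that did not overlap. Of all genes, 7.84% were lower at that p and 4.91% lay lower without overlap. The part of these cell types in the gene differences below was not tested.

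Across all genes, 0 of 14842 passed the threshold in either direction with edgeR, and the lowest adjusted p was 0.0505, shared by 21 genes. The 2288 genes with an unadjusted p under 0.05 were 1124 with a higher and 1164 with a lower level in DG METH. In DESeq2, which takes the spread of each gene from a model that borrows from other genes in a different way, 120 (0.809%) of the same genes passed, 37 higher and 83 lower, and all 120 had an unadjusted p under 0.05 in edgeR. With 2 RUVr factors, estimates of unwanted variation taken from the residuals, edgeR called 116 genes (0.782%), 68 of them shared with DESeq2 (56.7% of the DESeq2 calls and 58.6% of the RUVr calls). Without DG METH 1 and 2 the same cut gave 1055 higher and 1144 lower genes, and in replicates 3 and 4 of the shared run 629 were higher and 908 lower. The common biological coefficient of variation was 0.225 between the METH libraries.

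**Figure D3:**
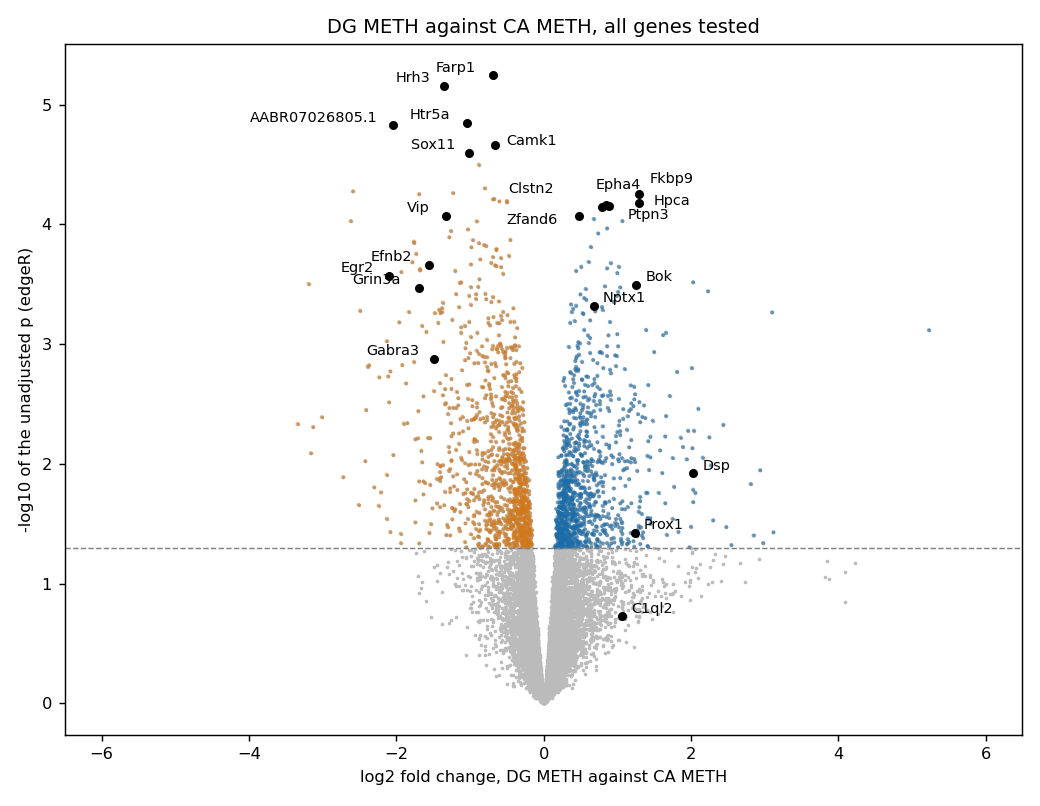
Log2 fold change of DG METH against CA METH (horizontal) and -log10 of the unadjusted p in edgeR (vertical) for the 14842 genes tested. Points above the dashed line have an unadjusted p under 0.05 and are blue where higher (1124) and orange where lower (1164) in DG METH, and the lower side reaches the smallest p, at Farp1 (-0.68) and Hrh3 (-1.35).

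The 6 genes with the lowest p among those higher in DG METH, with groups that did not overlap, were Fkbp9, Hpca, Epha4, Ptpn3, Clstn2 and Zfand6. Hippocalcin (Hpca, chr5:147294820-147303346 in rn6), a neuronal calcium sensor abundant in hippocampal pyramidal cells, was at 382, 425, 443 and 683 CPM in DG METH and at 178, 173, 222 and 215 CPM in CA METH. The lowest DG library exceeded the highest CA library by a wide margin (log2 fold change 1.30 ± 0.19 (SE), adjusted p = 0.0505 in edgeR and 3.28e-08 in DESeq2). The Eph receptor Epha4 (chr9:83111222-83253458), a receptor for both ephrin classes that acts in axon guidance and at dendritic spines, was at 565, 542, 479 and 685 CPM against 296, 288, 356 and 319 CPM (0.85 ± 0.12 (SE), adjusted p = 0.0505). Fkbp9, a prolyl isomerase of the endoplasmic reticulum, was at 44.2, 76.0, 51.7 and 54.9 CPM against 26.5, 20.5, 26.5 and 19.4 CPM (1.29). The tyrosine phosphatase Ptpn3 lay at 97.2 to 144 CPM in DG METH and 55.8 to 68.5 CPM in CA METH (0.89), calsyntenin-2 (Clstn2), a postsynaptic adhesion protein, at 229 to 312 against 141 to 177 CPM (0.79), and the zinc finger protein Zfand6 at 42.1 to 45.9 against 30.7 to 33 CPM (0.48). These 6 kept their direction without DG METH 1 and 2, with log2 fold changes of 0.49 to 1.52, and in replicates 3 and 4, with 0.48 to 1.37.

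The 6 genes with the lowest p among those lower in DG METH were Farp1, Hrh3, Htr5a, AABR07026805.1, Camk1 and Sox11. Farp1 (chr15:106434177-106625837 in rn6), a guanine nucleotide exchange factor of dendrites and synapses, was at 74.2, 82.4, 71.8 and 76.4 CPM in DG METH and at 120, 121, 118 and 131 CPM in CA METH. Each group was tight, and the log2 fold change was -0.68 ± 0.07 (SE; adjusted p = 0.0505 in edgeR and 8.76e-14 in DESeq2). Hrh3 (chr3:175473078-175479395), the presynaptic histamine H3 receptor that curbs release of histamine and other transmitters, was at 75.3, 55.6, 61.1 and 46.8 CPM against 157, 160, 128 and 166 CPM (-1.35 ± 0.15 (SE), adjusted p = 0.0505 in edgeR and 1.88e-12 in DESeq2). Htr5a, an inhibitory serotonin receptor, was at 8.04, 6.82, 6.23 and 5.95 CPM against 14.2, 14.4, 12.7 and 14.5 CPM (-1.04). The calcium/calmodulin-dependent kinase Camk1 lay at 29.5 to 32.6 CPM in DG METH and 45.0 to 53.6 CPM in CA METH (-0.66). The gene model AABR07026805.1 lay at 1.61 to 3.50 against 8.52 to 12.0 CPM (-2.05). Without DG METH 1 and 2 the 6 log2 fold changes, Sox11 included, ran from -2.50 to -0.69, and in replicates 3 and 4 from -2.58 to -0.69.

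Immediate early genes, which neurons switch on within minutes of activity, had lower values in DG METH in most cases. Of 21 tested, 17 had a log2 fold change below 0, and the median log2 fold change was -0.48. At an unadjusted p under 0.05, 6 were lower and 0 higher (7.84% and 7.57% of all genes). The 6 were Egr2, Egr4, Fosb, Fosl2, Junb and Nr4a2, and the groups of 4 of them did not overlap (4.91% of all genes). Egr2 (chr20:22454463-22459025 in rn6), a zinc finger factor, was at 1.21, 2.98, 1.75 and 2.54 CPM in DG METH and at 13.5, 9.29, 4.79 and 8.81 CPM in CA METH. It was the member with the lowest p (-2.10 ± 0.36 (SE), adjusted p = 0.0588). Fosb, an AP-1 subunit that lasts longer after stimulation than Fos, was at 5.86, 4.83, 5.91 and 5.26 CPM against 17.1, 13.2, 9.39 and 8.39 CPM (-1.12, adjusted p = 0.0761). CA METH 1 was the highest library in Egr2, Fosb, Fos (21.3 CPM), Egr1 (315 CPM) and Nr4a2 (188 CPM). Without CA METH 1 the median was -0.17. It was -0.47 without DG METH 1 and 2, with 6 lower, among which Jun and Per1 stood in place of Junb and Nr4a2. In replicates 3 and 4 it was -0.22, with 5 lower. Neither Arc, which acts on glutamate receptor turnover at active synapses (57.4 to 165 against 74.5 to 233 CPM), nor Egr3 (39.2 to 79.0 against 55.3 to 68.2 CPM) separated the groups.

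The CArG box, the site that serum response factor binds, is a feature of early response promoters. Among 33469 start windows that RefSeq gives for the rat assembly GRCr8, 1.5% held a CArG box in the 250 bases before the start, and of the 16 immediate early genes matched by symbol, 2 did, Egr1 and Egr2. The window of Egr2, the early response gene with the lowest p, is shown 5′ to 3′ with its CArG box in capitals (GRCr8, chr20:21054442-21054691, minus strand), where the first base of the box lies 83 bases before the start:
Egr2: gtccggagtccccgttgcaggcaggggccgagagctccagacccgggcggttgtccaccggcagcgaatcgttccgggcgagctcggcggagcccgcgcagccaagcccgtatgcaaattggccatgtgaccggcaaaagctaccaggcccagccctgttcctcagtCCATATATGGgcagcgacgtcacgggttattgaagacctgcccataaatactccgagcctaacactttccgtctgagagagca
Egr1 holds 2 such boxes and was at 60.3, 134, 84.6 and 142 CPM in DG METH and 315, 127, 112 and 129 CPM in CA METH, with overlap (-0.69, adjusted p = 0.422). A box is a match of letters, and binding was not measured.

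Among 29 transcription factors of hippocampal neurons tested, 7 were higher and 6 lower by an unadjusted p under 0.05 (7.57% and 7.84% of all genes). The groups of 3 in each direction did not overlap (4.04% and 4.91% of all genes). The higher ones included Zbtb20, a repressor needed for hippocampal identity, at 335, 308, 254 and 400 CPM in DG METH and 151, 199, 232 and 179 CPM in CA METH (0.77, adjusted p = 0.0880), and the bHLH factor Neurod2 at 80.2 to 133 against 62.9 to 77.6 CPM (0.62). Etv1, an ETS factor, was the lower one with the lowest p, at 122, 104, 85.0 and 97.5 CPM in DG METH and 216, 295, 148 and 232 CPM in CA METH (-1.12 ± 0.20 (SE), adjusted p = 0.0634). Fezf2, which specifies deep-layer projection neurons of the cortex, was at 20.5, 23.7, 17.4 and 17.8 CPM against 76.1, 60.0, 28.3 and 45.9 CPM (-1.40 ± 0.27 (SE), adjusted p = 0.0691). Neurod1, the bHLH factor of granule neuron differentiation, was at 34.6, 28.1, 14.4 and 38.9 CPM in DG METH and 10.7, 23.4, 20.7 and 20.0 CPM in CA METH. There DG METH 3 again lay among the CA libraries (0.63, adjusted p = 0.384, and 0.86, adjusted p = 0.126, without DG METH 3). The Nogo receptor homolog Rtn4rl2 overlapped (25.2 to 46.2 against 38.1 to 73.1 CPM). The class IIa histone deacetylase Hdac5 was lower in each DG METH library, at 82.1, 105, 112 and 116 CPM, than in each CA METH library, at 150, 138, 143 and 149 CPM (-0.48 ± 0.11 (SE), adjusted p = 0.107).

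Ion channels and receptors split in both directions, as did all genes, with 7.57% higher and 7.84% lower by an unadjusted p under 0.05. Of 31 glutamate receptor and auxiliary genes tested, 5 were higher and 7 lower by an unadjusted p under 0.05, and the median log2 fold change was -0.09. Grin3a, the NMDA receptor subunit GluN3A that lowers calcium entry, was at 13.6, 10.6, 11 and 6.26 CPM in DG METH and 20.6, 45.3, 25.7 and 42.1 CPM in CA METH (-1.69 ± 0.30 (SE), adjusted p = 0.0634). Grik1, the kainate subunit GluK1, lay at 13.7 to 16.8 against 19.3 to 27.3 CPM (-0.59), and the groups of both genes were apart. The NMDA receptor subunit Grin2a (0.63) was higher at an unadjusted p under 0.05 with overlapping groups. Among 16 GABA-A subunits tested 2 were higher and 4 lower. Gabra3, the α3 subunit, was at 30.8, 25.4, 20.6 and 9.72 CPM in DG METH and 68.0, 65.8, 38.8 and 70.6 CPM in CA METH, with no overlap (-1.49 ± 0.33 (SE), adjusted p = 0.0909). Gabra5, the α5 subunit of tonic inhibition that is abundant in the hippocampus, was on the other side, at 208, 131, 166 and 221 CPM against 118, 132, 102 and 132 CPM, where DG METH 2 lay within the CA range (0.59 ± 0.17 (SE), adjusted p = 0.153).

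Of 53 potassium and HCN channel genes tested, 6 were higher and 10 lower by an unadjusted p under 0.05 (7.57% and 7.84% of all genes). The groups of 3 higher and 2 lower genes did not overlap (4.04% and 4.91% of all genes). Kcnab2, an auxiliary β subunit of Kv1 channels, was at 360, 390, 285 and 461 CPM in DG METH and at 252, 264, 255 and 251 CPM in CA METH (0.55 ± 0.13 (SE), adjusted p = 0.116). Kcna1, a Kv1 pore subunit, was higher as well, at 83.9 to 131 against 70.0 to 78.0 CPM (0.54). Without DG METH 1 and 2, 8 of the list were higher and 16 lower (6.88% and 7.47% of all genes).

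Of 75 axon guidance and adhesion genes tested, 11 were higher and 14 lower by an unadjusted p under 0.05 (7.57% and 7.84% of all genes). The groups of 3 higher and 9 lower genes did not overlap (4.04% and 4.91% of all genes). Epha4 was the member with the lowest p among the higher ones, and the receptors Epha7 (1.06), Epha8 (1.65) and Ephb2 (0.49) were higher at an unadjusted p under 0.05 with overlapping groups, while the receptor Epha10 (-0.59) was lower. The ligand ephrin-B2 (Efnb2) was at 31.2, 26.8, 20.3 and 15.0 CPM in DG METH and 57.0, 83.8, 47.8 and 86.8 CPM in CA METH. Its highest DG library was below its lowest CA library (-1.56 ± 0.26 (SE), adjusted p = 0.0567), and ephrin-B1 (Efnb1, 9.88 to 15.0 against 15.3 to 23.0 CPM) and ephrin-A5 (Efna5, -0.94, with overlap) lay lower too. Of the semaphorins, the repellent Sema3a was at 1.42 to 7.68 CPM in DG METH and 10.6 to 22.1 CPM in CA METH (-1.87), whereas Sema3c was at 44.8 to 81.0 against 26.2 to 40.2 CPM (0.90) and their receptor Nrp1 at 151 to 232 against 93.0 to 134 CPM (0.71). Without DG METH 1 and 2, 6 of the list were higher and 18 lower (6.88% and 7.47% of all genes).

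Of 46 receptors for monoamines, acetylcholine and peptides tested, 11 were lower in DG METH and 3 higher by an unadjusted p under 0.05. Over all genes, 7.84% were lower and 7.57% higher. The median log2 fold change of the list was -0.11. Besides Hrh3 and Htr5a, Drd5, a D1-like dopamine receptor, was at 0.725, 0.924, 0.415 and 0.248 CPM in DG METH and at 3.54, 3.41, 2.75 and 4.20 CPM in CA METH (-2.59 ± 0.36 (SE), adjusted p = 0.0505). The α2A-adrenoceptor Adra2a (3.22 to 11.7 against 16.7 to 38.5 CPM, -1.92) and the β1-adrenoceptor Adrb1 (5.59 to 10.4 against 12.5 to 16 CPM, -0.89) were also lower with no overlap. On the other side, the α1D-adrenoceptor Adra1d was at 77.8 to 107 CPM in DG METH and 43.5 to 70.6 CPM in CA METH (0.58). Drd5, Adra2a, Adrb1 and Adra1d were chosen after their values were seen. Without DG METH 1 and 2, 11 of the list were lower and 2 higher (7.47% and 6.88% of all genes). In replicates 3 and 4, 13 were lower and 2 higher (6.0% and 4.16% of all genes).

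Vip and Sst of the interneuron list, and the peptide Cck outside it, lay lower in each DG METH library than in each CA METH library. Vip was at 7.43, 7.60, 5.82 and 9.54 CPM in DG METH and at 23.7, 21.0, 13.9 and 18.0 CPM in CA METH, without overlap (-1.33 ± 0.20 (SE), adjusted p = 0.0518). Somatostatin (Sst) was at 54.3, 41.4, 30.9 and 41.8 CPM against 73.8, 80.3, 56.2 and 75.4 CPM (-0.76, adjusted p = 0.0990), cholecystokinin (Cck) at 81.4 to 122 against 123 to 219 CPM (-0.84), and neuronal nitric oxide synthase (Nos1) at 45.1 to 95.2 against 149 to 259 CPM (-1.48). Other members of the interneuron list overlapped between the groups, among them the GABA-synthesizing enzymes Gad1 (-0.12) and Gad2 (0.02), Adarb2 (0.23) and the calcium buffer parvalbumin (Pvalb, 0.34), which was at 20.7, 24.2, 35.7 and 30.2 CPM in DG METH and 31.8, 23.2, 16.5 and 16.4 CPM in CA METH. In replicates 3 and 4, Pvalb was higher in DG METH by an unadjusted p under 0.05 (1.01). Npy was at or below 3 reads in all 8 libraries and was not tested. Whether these counts capture its transcript was not examined. Nptx1, a pentraxin that clusters AMPA receptors, was on the other side at 1050, 832, 773 and 678 CPM in DG METH and 516, 523, 529 and 520 CPM in CA METH (0.68 ± 0.13 (SE), adjusted p = 0.0691). Of 25 neuropeptide and growth factor genes tested, 3 were higher and 7 lower by an unadjusted p under 0.05 (7.57% and 7.84% of all genes).

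**Figure D4:**
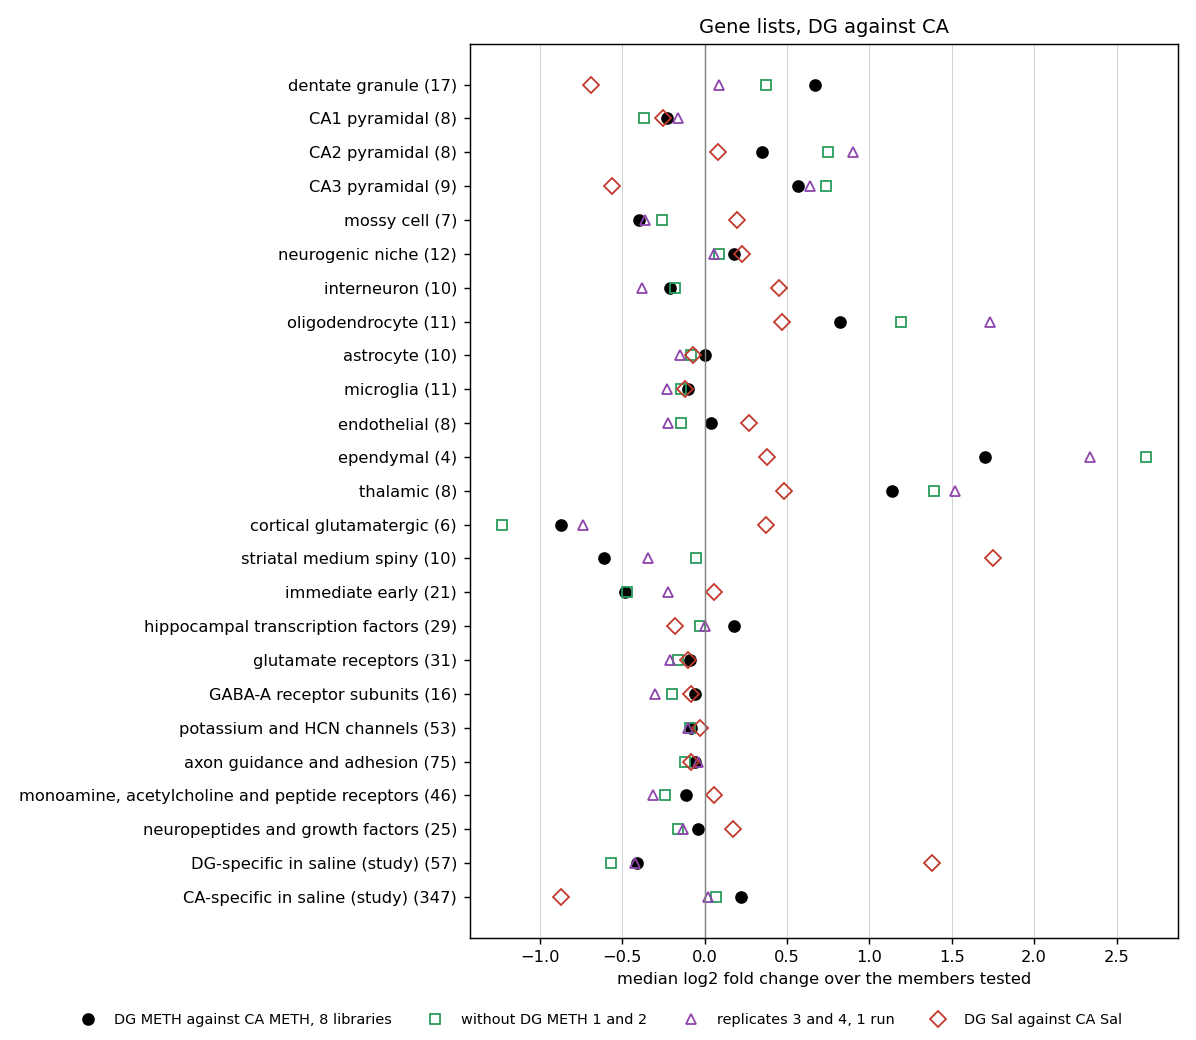
Median log2 fold change of DG against CA over the tested members (number in brackets, from the 8 METH libraries) of 25 gene lists: all METH libraries (black circles), without DG METH 1 and 2 (green squares), replicates 3 and 4 of 1 run (purple triangles) and the saline libraries (red diamonds). Granule and CA3 medians are above 0 in METH (0.67 and 0.57) and below 0 in saline (-0.69 and -0.56), and the choroid plexus list, with a METH median of 3.88 that rests on DG METH 3, is left out to keep the scale.

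The saline libraries were compared in the same way, to see whether the subfields differed as they did after METH. There, 0 of 14630 genes (0.0%) passed the threshold, 627 (4.29%) were higher and 583 (3.98%) lower in DG Sal by an unadjusted p under 0.05, together 8.27%, and the lowest adjusted p was 0.588. The granule genes were on average lower in DG Sal than in CA Sal (median -0.69, with 0 higher and 2 lower of 17), with Prox1 at 148, 25.6, 29.2 and 74.0 CPM in DG Sal and at 247, 32.6, 291 and 82.4 CPM in CA Sal. Both regions held libraries with high and with low Prox1, so that the label did not set this granule marker apart in saline. The CA3 genes were lower in DG Sal as well (median -0.56), with Bok at 12.2 to 22.0 CPM in DG Sal and 22.7 to 63.3 CPM in CA Sal. Some saline libraries stood apart in markers of other tissue. The striatal medium spiny list reached 2100 CPM in DG Sal 3, against 251 to 343 CPM in the other DG Sal libraries, and Neurod6 was at 0.0627 CPM in DG Sal 3. The choroid plexus list reached 2380 CPM in DG Sal 4 and 2310 CPM in CA Sal 2. The part of such tissue in the saline contrast and in the interaction was not tested.

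The METH and saline comparisons share no library. Of 14491 genes tested in both, 235 had an unadjusted p under 0.05 in both (10.4% of the 2253 in METH and 19.6% of the 1197 in saline), and 212 of these pointed in opposite directions, 150 higher in DG METH and lower in DG Sal and 62 the reverse. Only 23 pointed the same way. This pattern turned over without DG METH 1, DG METH 2, DG Sal 1 and DG Sal 2. Then 459 genes had an unadjusted p under 0.05 in both (21.2% of the 2162 in METH and 13.4% of the 3434 in saline), of which 311 pointed the same way and 148 in opposite directions. The direction of the METH contrast relative to saline thus changed when these libraries were left out. No other set was left out of this comparison, so whether the numbering matters was not tested. Over all genes tested in both, 48.6% had the same sign in METH and saline with all 16 libraries, and 57.1% without these.

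A test of the difference itself, the interaction of region and treatment in the 16 libraries, called 0 of 15308 genes (0.0%) at an FDR of 0.01, with 1111 (7.26%) higher and 1242 (8.11%) lower by an unadjusted p under 0.05 and a lowest adjusted p of 0.126. DESeq2 called 91 (0.594%). Without DG METH 1, DG METH 2, DG Sal 1 and DG Sal 2, edgeR called 0 of 15861 genes, with 1253 higher and 1249 lower by an unadjusted p under 0.05. In the fit of all 16, 8 of the granule genes and 6 of the CA3 genes had a higher contrast in METH than in saline at an unadjusted p under 0.05, and 0 of either had a lower one. The counts for these lists were not made without those libraries. The genes with the lowest p were Arhgef25, Hpca and Hspa2. Arhgef25, a guanine nucleotide exchange factor, was at 127, 140, 106 and 161 CPM in DG METH and 54.7, 51.3, 84.2 and 73.9 CPM in CA METH, but at 61.0, 59.5, 60.5 and 50.5 CPM in DG Sal and 174, 74.0, 109 and 88.7 CPM in CA Sal. Its order was thus turned around (log2 fold changes of 1.01 and -0.95, adjusted p of the difference = 0.126). Hpca behaved alike (1.30 in METH and -1.20 in saline, at 112 to 172 CPM in DG Sal and 201 to 599 CPM in CA Sal). Hspa2, a member of the HSP70 chaperone family, differed little in METH (20.4 to 23.4 against 15.4 to 22.5 CPM, 0.27) and lay at 9.28 to 16.1 CPM in DG Sal and 19.0 to 27.5 CPM in CA Sal (-1.04).

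The genes that the study lists as DG-specific or CA-specific were chosen by it in the saline libraries, against 3 other regions, and none of the METH libraries entered that choice. Of the 57 DG-specific genes tested in METH, 0 were higher and 10 lower by an unadjusted p under 0.05, with a median of -0.41. Of the 347 CA-specific genes tested, 88 were higher and 22 lower in DG METH, with a median of 0.22. Over all genes, 7.57% were higher and 7.84% lower by that measure. In the saline libraries themselves the medians were 1.38 and -0.87, a direction that the choice of the genes sets. Without DG METH 1 and 2 the METH values were 3 higher and 15 lower (median -0.57) for the DG-specific genes, and 62 higher and 33 lower (median 0.07) for the CA-specific genes. Over all genes, 6.88% were higher and 7.47% lower then.

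**Figure D5:**
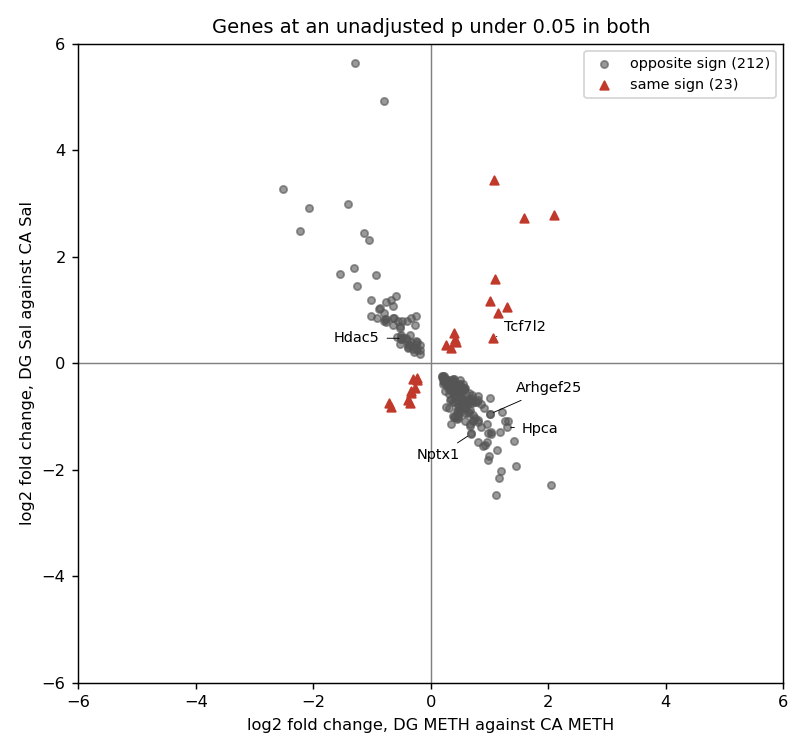
Log2 fold change of DG METH against CA METH (horizontal) and of DG Sal against CA Sal (vertical) for the 235 genes with an unadjusted p under 0.05 in both. Grey circles are the 212 genes of opposite sign and red triangles the 23 of the same sign; Hpca, Arhgef25 and Nptx1 lie to the lower right and Hdac5 to the upper left.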

How the data were processed

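RNA-seq read counts of rat brain tissue were used as deposited. Per the labels, the file headers and the methods of the paper, the authors trimmed reads with cutadapt 2.7, mapped them to rn6 with STAR 2.5.2b and deposited unnormalized counts per gene made with featureCounts 1.6.3 at a mapping quality of at least 10, without regard to strand, so counts of overlapping, antisense and closely paralogous genes are uncertain. Of 28914 gene names, 171 lie on more than 1 chromosome. Sequence runs and library numbers were read from the alignment names in the file headers. A matrix of the whole series was not used here.

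Samples were grouped by their titles. The 8 METH samples were normalized by the upper quartile in edgeR 4.0.16 (R 4.3.3), lowly counted genes were dropped by filterByExpr, and DG was compared with CA by the quasi-likelihood test with Benjamini-Hochberg adjustment, two-sided. Genes past an FDR of 0.01 that differed more than 2-fold, the study's own limits, count as called. The saline samples were fitted separately, and an interaction term over all 16 tested the difference. CPM values use upper-quartile library sizes of the 16, except those of the genes that follow the library number, which use total counts. SE values of log2 fold changes were derived from the fit. Nothing in the labels says that samples of a group are from different animals, so p-values measure the spread between these samples. Pairs of samples within a group differed by more than sampling noise (chi-square per gene of 16.5 to 70.3). Figures were made with matplotlib 3.10.9.

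Gene lists are described by counts and medians, with no test. The genes named are markers of the subfields, the 6 with the lowest p in each direction among genes with separate groups (none being called), the 2 members with the lowest p of each of 8 functional lists, Neurod1, Rtn4rl2 and Hdac5, and the 3 with the lowest p in the interaction, apart from a few genes that are not reported here. Other members of the lists are named after their values were seen, as were Ttr and the genes that follow the library number. The comparison, the genes and the lists were chosen with earlier results of these data known.

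Alternatives were TMM normalization, DESeq2 1.42.0, other filters and thresholds, fits of 16 or 32 samples, a replicate block, the RNA integrity number or the sequencing run as a covariate, 1 or 2 RUVr factors and leaving out samples. Replicates 3 and 4 alone, and fits without DG Sal 1 and 2, were added after seeing the data. In data simulated for the METH comparison, 200 of 200 genes changed 4-fold were recovered among 14961 tested at a dispersion of 0.01 and 199 of 200 among 14917 at 0.05, with 0 wrong calls. The simulation gave all genes the same dispersion, changed only well-counted genes and held no outlying library. It thus checked the procedure and did not measure how many true differences these libraries could reveal. Intervals for counting error are not given, since the spread between samples exceeded it.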

Additional observations from a re-analysis of the deposited data

Results flagged for a closer look

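In groups of 4 libraries, 10 of 132 values examined (the named genes and the summed lists in DG METH and CA METH) had 1 library far from the other 3, where chance alone flags about 1 in 20. In DG METH, DG METH 3 was the highest in the choroid plexus list (6520 CPM), the thalamic list (214 CPM) and the striatal medium spiny list (487 CPM). In CA METH, CA METH 1 was the highest in the oligodendrocyte (8870 CPM), thalamic (83.6 CPM) and cortical glutamatergic (416 CPM) lists and in the genes that the study lists as DG-specific in saline (987 CPM). CA METH 2 was the highest in the choroid plexus list (376 CPM) and CA METH 3 in the striatal medium spiny list (754 CPM), and CA METH 3 was the lowest in Gabra3 (38.8 CPM). The cause of these values was not tested. No named gene had an adjusted p under 0.05 for the difference of the DG-CA contrast between METH and saline, with edgeR.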

How the results depend on the processing

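The count of genes called in DG METH against CA METH was 0 in edgeR and under each alternative but DESeq2 (120) and 2 RUVr factors (116), and 0 when any 1 library was left out. The cause of the gap between edgeR and DESeq2 was not tested. Genes at an unadjusted p under 0.05 numbered 2288, 1517 in 1 fit of 32 samples, 3612 with 2 RUVr factors and 1596 to 2483 without 1 library. With the replicate block it was 1643, with 0 called. The deviations of DG METH and CA METH libraries with the same replicate number correlated at -0.37, -0.40, -0.06 and 0.09. DG METH 3 and CA METH 3 both carried the library number 24, and DG METH 4 and CA METH 4 both carried 25. Whether such libraries came from the same animal was not tested. In saline, where 0 were called throughout, the 1210 genes at an unadjusted p under 0.05 became 1846 in the 32-sample fit, 2211 with RNA integrity, 78 with the sequencing run, 1855 and 2724 with 1 and 2 RUVr factors, 3496 without DG Sal 1 and 2, and 511 to 2154 without 1 library. These included 2154 without DG Sal 1, 784 without DG Sal 4, 511 without CA Sal 1 and 574 without CA Sal 3. The interaction called 91 genes in DESeq2 and 2 in the 32-sample fit, and 1459 had an unadjusted p under 0.05 with the run as a covariate.

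Of the named genes, 26 passed an FDR of 0.01 in DESeq2 and 24 with 2 RUVr factors. C1ql2 changed sign with the run as a covariate and in replicates 3 and 4 (-0.17 in both) and Wfs1 with the replicate block (-0.09) and with 2 RUVr factors (-0.03). List medians moved beyond the spread between replicates for CA2 (0.90 with the run and in replicates 3 and 4, 0.75 without DG METH 1 and 2), oligodendrocyte (1.74 and 1.73), astrocyte (-0.15 in both), endothelial (-0.22 in both), GABA-A (-0.30 in both), monoamine, acetylcholine and peptide receptor (-0.31 in both, -0.24 without DG METH 1 and 2) and choroid plexus genes (7.91 and 7.43, -0.03 and 0.52 with 1 and 2 RUVr factors). Leaving out 1 library moved the medians of mossy cell (-0.61 to 0.11), neurogenic niche (-0.07 to 0.23), ependymal (0.05 to 2.39), choroid plexus (-2.21 to 7.06), thalamic (0.62 to 1.23), cortical glutamatergic (-1.27 to -0.13), striatal (-1.68 to 0.12), transcription factor (-0.05 to 0.28), potassium channel (-0.17 to 0.10) and DG-specific genes (-0.53 to -0.21). Within the spread between replicates but by over 1.5 times or past 0, it also moved those of CA1 (-0.54 to 0.09), CA2 (0.34 to 0.54), immediate early (-0.61 to -0.17), interneuron (-0.35 to -0.09), oligodendrocyte (0.27 to 1.35), microglial (-0.19 to 0.02), endothelial (-0.15 to 0.15), astrocyte (-0.06 to 0.02), glutamate receptor (-0.17 to -0.06), GABA-A (-0.16 to -0.01), axon guidance (-0.11 to -0.05), monoamine, acetylcholine and peptide receptor (-0.21 to -0.09), neuropeptide (-0.17 to 0.09) and CA-specific genes (0.12 to 0.33), which leaves granule (0.53 to 0.94) and CA3 genes (0.41 to 0.76). For the former lists, the value furthest from the full fit came without DG METH 3 for niche, ependymal, choroid plexus, thalamic and striatal genes, without CA METH 1 for cortical glutamatergic, potassium channel and DG-specific genes, without CA METH 3 for mossy cell genes and without DG METH 2 for transcription factors. The granule median was 0.67 in the full fit, but 0.37 without DG METH 1 and 2 and 0.09 in replicates 3 and 4. The CA3 median was 0.57, 0.74 and 0.64 in these fits.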
